A study of Mus musculus with 8 samples.

Results

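The exocrine pancreas was followed through 37 genes of the acinar cell: the digestive enzymes of the zymogen granule, the proteins packed with them, and the regulators that keep the acinar cell type. Every probe that carries the symbol of one of these genes, or an older or newer name of it, was taken, and 33 of the 37 genes had at least 1 probe, with 40 probes in all among the 34850 probes of 21597 gene symbols on the array. Prss1, Try4, Try10 and Spink3 had no probe under their own symbol and were not analysed here. Each of 8 arrays set the total pancreas RNA of 1 female NOD mouse of 12 weeks, labelled with Cy5 (red), against the same pool of pancreas RNA from 8 age-matched NOD.B10 mice, labelled with Cy3 (green). NOD mice develop autoimmune diabetes, and NOD.B10 mice are a congenic strain on the NOD background that carries the major histocompatibility complex of the B10 strain and does not become diabetic. Nothing beyond strain separates the mice in the labels, and no mouse was treated. The dyes were never exchanged and the pool is 1 RNA preparation, so a difference between strains and a difference between dyes cannot be told apart, and the spread between arrays holds no variation between NOD.B10 mice. The arrays lay on 2 slides of 4, and slide 1 holds mice 1 to 4 and slide 2 mice 5 to 8. In whole tissue, fewer acinar cells and less RNA per acinar cell cannot be told apart.

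Acinar cells make up most of the pancreas. They secrete proteases as inactive zymogens, lipases with their cofactor, amylase and ribonuclease, and they store them in granules until cholecystokinin or a nerve signal releases them. The acinar programme is held by the PTF1 complex, in which the bHLH factor Ptf1a joins a common E protein and Rbpsuhl (now Rbpjl), and by Bhlhb8 (Mist1, now Bhlha15) and the nuclear receptor Nr5a2. PTF1 is known to bind an E-box, CANNTG, that is followed on the same strand by a TC-box, TTTCCC.

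The letters of that element stood upstream of a few of the genes. Promoters of 27 of the 33 measured genes, 29 entries in all, were found in the RefSeq table of GRCm38.p6, and the 250 bases before the start were searched on both strands. An E-box followed after 3 to 20 bases by TTTCCC stood in 3 of the 29 entries (10.3%) and in 1.78% of all 32851 promoters of the same length. The E-box form CACCTG, which is one of the forms that CANNTG covers, stood in 15 of the 29 (51.7%) and in 17.2% of all promoters, while the form CAGCTG stood in 4 of the 29 (13.8%) and in 13% of all promoters and TTTCCC alone in 7 of the 29 (24.1%) and in 21.9%. CAAGGTCA, the letters of the site that Nr5a2 is known to bind, stood upstream of Cel and Klk1 (6.90% of the entries, against 1.33% of all promoters). These are matches of letters and no binding was measured. The 3 enzyme promoters with the paired element are shown with both boxes in capitals, and that of Rbpsuhl, the PTF1 subunit described with the regulators, with its single E-box of the CACCTG form in capitals, 5′ to 3′ on the strand of the gene. On that strand the Cel element reads in reverse.
Ela1 (now Cela1), chr15:100687921-100688170 (- strand): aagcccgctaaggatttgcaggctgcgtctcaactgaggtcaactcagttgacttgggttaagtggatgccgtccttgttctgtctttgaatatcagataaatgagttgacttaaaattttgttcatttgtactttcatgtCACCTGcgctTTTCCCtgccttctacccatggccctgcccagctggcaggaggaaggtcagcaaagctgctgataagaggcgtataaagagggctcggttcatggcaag
Ctrb1, chr8:111691011-111691260 (- strand): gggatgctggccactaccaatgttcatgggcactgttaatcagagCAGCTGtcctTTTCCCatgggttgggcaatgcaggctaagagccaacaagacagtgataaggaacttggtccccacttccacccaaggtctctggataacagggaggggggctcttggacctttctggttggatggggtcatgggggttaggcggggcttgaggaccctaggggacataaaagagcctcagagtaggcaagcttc
Cel, chr2:28563404-28563653 (- strand): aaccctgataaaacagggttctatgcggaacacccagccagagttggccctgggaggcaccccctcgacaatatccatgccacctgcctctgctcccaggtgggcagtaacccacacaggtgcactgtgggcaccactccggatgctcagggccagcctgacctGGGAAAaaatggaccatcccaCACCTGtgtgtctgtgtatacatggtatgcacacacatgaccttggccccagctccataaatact
Rbpsuhl (now Rbpjl), chr2:164402944-164403193 (+ strand): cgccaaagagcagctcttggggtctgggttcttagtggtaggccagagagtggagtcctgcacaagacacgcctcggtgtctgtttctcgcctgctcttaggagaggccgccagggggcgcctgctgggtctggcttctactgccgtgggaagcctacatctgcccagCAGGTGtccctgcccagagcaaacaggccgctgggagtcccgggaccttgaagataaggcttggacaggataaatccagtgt
In Ela1 and in Ctrb1 the boxes are 4 bases apart, and in Cel 15 bases apart. The log2 ratios of these 3 enzymes in NOD mice were -0.09, 0.54 and 0.26, given in full with their groups below.

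The acinar probes gave many of the brightest spots of the tissue. By the signal of the pool, 14 of the 25 brightest tested probes and 26 of the 100 brightest stood for one of the 33 genes. Ctrb1, chymotrypsinogen B, was the brightest of all 28105 probes tested, with a mean green signal of 520363 scanner units, and Ctrl, the chymotrypsin-like protease, was at position 3 with 477681. The signal of a probe depends on its sequence as well as on the amount of RNA, so that these positions are of probes. Of the regulators, Rbpsuhl had 90962 at position 98 and Bhlhb8 37007 at position 243. Ptf1a had 6032 at position 1215 and Nr5a2 had 4235 at position 1668, the lowest of the 33, but red signals were well above the local background in 8 of 8 arrays for all 33 genes. No spot of these genes was saturated in either dye on any array, and no pixel of them reached saturation. The signal of the pool varied less between arrays than the signal of the mice: the SD of the log2 signal had a median of 0.15 in green and 0.31 in red, and green was below red in 32 of 33 genes, all but Dmbt1. Repeated spots within an array also spread more in red (16.1% to 63.5%) than in green (6.81% to 13.8%). The part of this in the wider red signals was not tested.

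**Figure D1:**
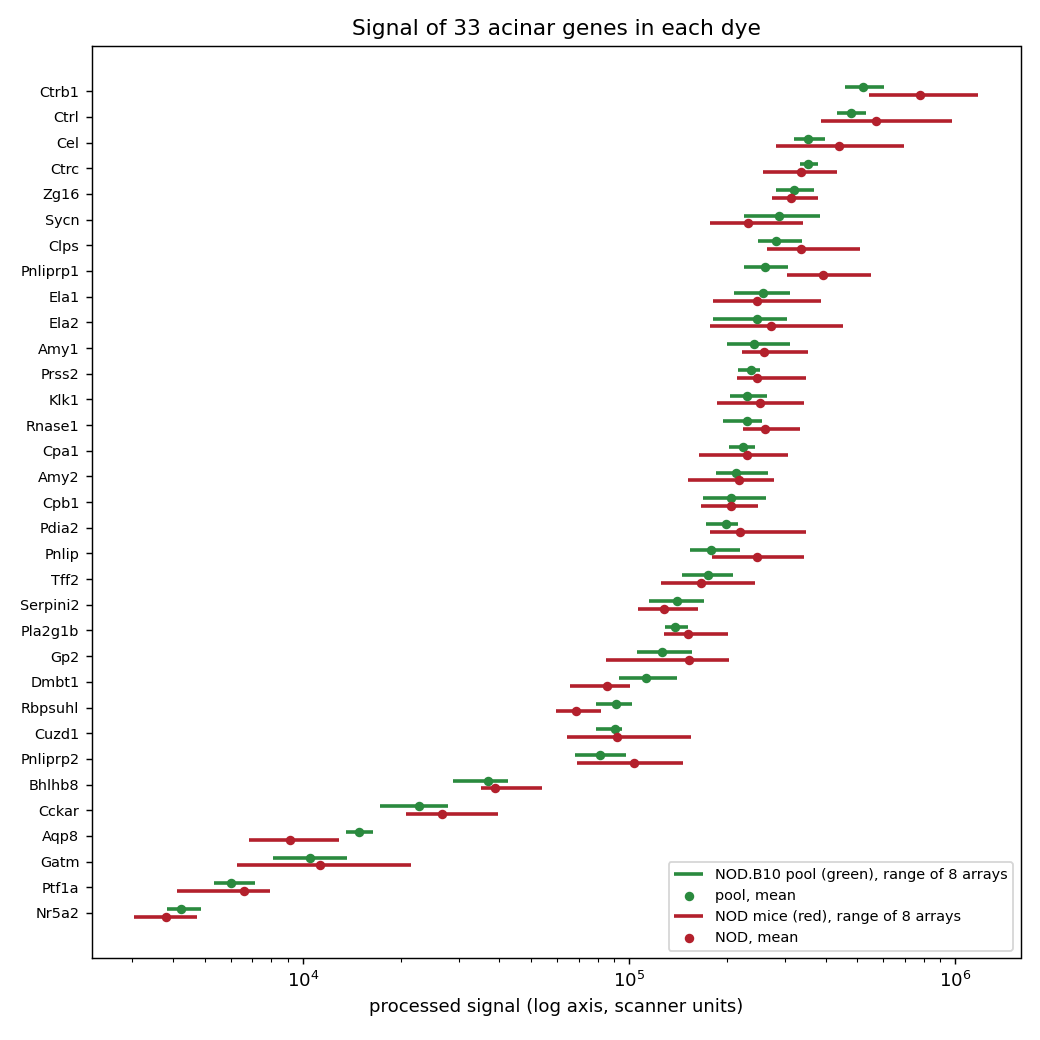
Processed signal (log axis, scanner units) of 33 acinar genes in the NOD.B10 pool (green) and in 8 NOD mice (red). Points are means over 8 arrays and bars the range. Signals reach from 4235 for Nr5a2 to 520363 for Ctrb1 in the pool, and the red bars are the longer ones for most genes.

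With the deposited ratios, none of the 33 genes reached 2-fold with an adjusted p under 0.01, the cut that 1.72% of all tested probes (484 of 28105) passed. This count depended on the normalization: with a normexp background and loess, 14 of the 33 passed the same cut, all higher in NOD mice, and with median centring and no curve 1 passed. At any fold, 5 of 33 genes (15.2%) passed an adjusted p of 0.01 in limma's moderated test, against 6.94% of all probes: with these ratios Pnliprp1 was higher, and Aqp8, Rbpsuhl, Dmbt1 and Sycn were lower. Under both other normalizations Pnliprp1 passed as well and the other 4 did not, and with normexp and loess the means of Rbpsuhl, Dmbt1 and Sycn were above 0. Of all probes, 2.54% passed in the upward direction and 4.4% in the downward. The means ran from -0.72 (Aqp8) to 0.57 (Pnliprp1) on the log2 scale of NOD over pool, 22 were above 0 and 11 below, and their median was 0.06, beside a median of -0.09 over all tested probes. For 32 of the 33 genes the 95% interval of the mean lay within 2-fold of the pool in both directions, and for Aqp8 it ended just past 2-fold lower, with an upper bound of -0.43. Unadjusted p-values were under 0.05 for 12 genes, against 33.8% of all probes. All 8 mice were above the pool for 4 genes (3.92% of all probes) and below it for 4 others (9.4% of all probes).

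**Figure D2:**
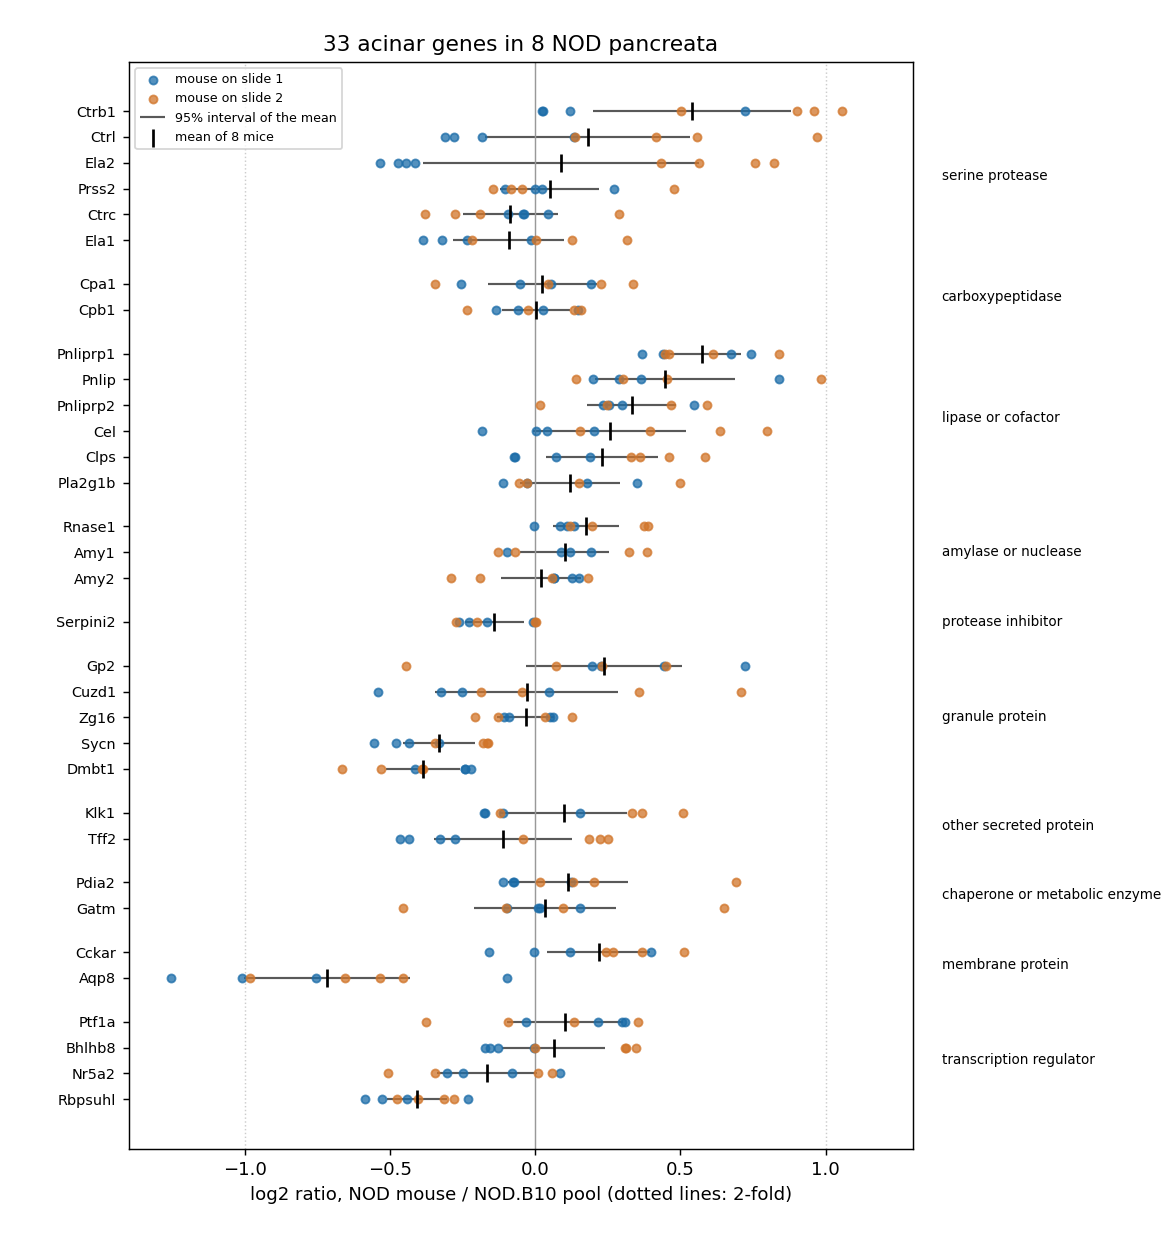
Log2 ratio of each NOD mouse to the NOD.B10 pool for 33 acinar genes, grouped by role. Points are single mice coloured by slide, ticks the mean of 8 mice and lines its 95% interval from limma. Pnliprp1 has all 8 mice to the right of 0, Aqp8, Rbpsuhl, Dmbt1 and Sycn have all 8 to the left (the means of the last 3 were above 0 with normexp and loess), and the slides separate for Ela2.

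The lipases and their cofactors formed the group with the highest median, 0.29 over 6 genes, and all 6 means were above 0, as they were under the other 2 normalizations except for Pnliprp2 with median centring (-0.019). Of the 6, 1 passed the test with the deposited ratios. With normexp and loess 5 of the 6 passed 2-fold and an adjusted p of 0.01 (83.3%), all but Pnliprp2. The share was 0.171% of all probes in that direction and, in either direction, 28.6% of the 70 other bright probes. With median centring only Pnlip passed 2-fold and 0.01, against 20.6% of all probes in that direction. Pnliprp1, pancreatic lipase-related protein 1, a relative of pancreatic lipase with little lipase activity of its own, read 0.44, 0.67, 0.74 and 0.37 in the 4 mice of slide 1 and 0.84, 0.61, 0.45 and 0.46 in those of slide 2. All 8 mice lay above the pool and the slides overlapped. Its mean was 0.57 ± 0.17 (SD, n = 8), 149% of the pool, with an adjusted p of 0.0013 in limma, and the exact sign-flip test gave p = 0.0078, the smallest that 8 arrays allow. Pnlip, the main triglyceride lipase, read 0.20, 0.29, 0.84 and 0.36 on slide 1 and 0.30, 0.98, 0.45 and 0.14 on slide 2. Again all 8 mice were above the pool, with 1 mouse of each slide well over the others. The mean was 0.45 ± 0.30 (SD, n = 8) and missed the threshold (limma adjusted p = 0.023), and the second Pnlip probe gave 0.19 ± 0.17 (adjusted p = 0.065). Pnliprp2, a lipase of broad substrate range, had 0.33 ± 0.19 (SD, n = 8) with 8 of 8 mice above the pool and a limma adjusted p of 0.013. The 3 lipases are neighbours on chromosome 19 in the positions of the array (mm8): the Pnlip probe lies at chr19:58727102-58727161, that of Pnliprp1 at chr19:58793788-58794381 and that of Pnliprp2 at chr19:58827320-58827379. Cel, the bile-salt-activated lipase, had a mean of 0.26 ± 0.33, Clps, the colipase that anchors lipase to fat droplets, 0.23 ± 0.24, and Pla2g1b, pancreatic phospholipase A2, 0.12 ± 0.22 (SD, n = 8 each). Their limma adjusted p-values were 0.16, 0.092 and 0.31.

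The serine proteases had a median of 0.07 over 6 genes with the deposited ratios, with 4 means above 0 and none past the test. With normexp and loess all 6 means were above 0, and 3 genes, Ctrb1, Ctrc and Prss2, passed 2-fold and an adjusted p of 0.01. With median centring 3 means were above 0, and Ctrb1 (0.92, limma adjusted p = 0.0023) passed the adjusted p but not 2-fold. Ctrb1 read 0.03, 0.12, 0.72 and 0.02 on slide 1 and 0.96, 1.06, 0.90 and 0.50 on slide 2. All 8 mice were at or above the pool, 3 mice of slide 1 only just, and the mean was 0.54 ± 0.43 (SD, n = 8; limma adjusted p = 0.039). Ctrl read -0.31, -0.28, 0.13 and -0.18 on slide 1 and 0.41, 0.97, 0.56 and 0.14 on slide 2, so that the mean of 0.18 ± 0.45 (SD, n = 8) covers mice on both sides of the pool. The others lay near the pool with the deposited ratios: Prss2, an anionic trypsinogen, had 0.05 ± 0.22, Ctrc, chymotrypsin C, which regulates trypsinogen activation, -0.09 ± 0.21, and Ela1, an elastase, -0.09 ± 0.24. With median centring Prss2 was at 0.35, Ctrc at 0.63 and Ela1 at -0.37. A second Ela1 probe gave -0.18 ± 0.36 (SD, n = 8), and on it the slides did not overlap, with slide 2 minus slide 1 at 0.60 (limma adjusted p = 0.048), or 0.08 with median centring and 0.20 with normexp and loess, while they overlapped on the brighter probe (0.30). Ela2, the pancreatic elastase 2 that the array names Ela2a, had 0.09 ± 0.61, the widest spread of the 33 genes, and is taken up with the slides. The probe that the array itself names Ela2 is described there as the neutrophil elastase gene, was not well above background in red in any array, and was not counted. The 2 probes under the trypsinogen symbol Prss3 had -0.12 ± 0.29 and -0.01 ± 0.18 (SD, n = 8), with 2 and 4 of 8 mice above the pool. The transcripts that the annotation gives for the first include those of Prss1 and Try10, and since trypsinogens are near copies, probes may share signal between them.

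With the deposited ratios, the other enzymes of the granule did not pass on their brightest probes. With normexp and loess Cpa1 (limma adjusted p = 0.0022) and Rnase1 (1.58, 0.0080) passed 2-fold and an adjusted p of 0.01. The carboxypeptidases, which trim C-terminal residues from peptides, lay close to the pool with the deposited ratios: Cpa1 had 0.02 ± 0.24 and Cpb1 0.0018 ± 0.14. With median centring they were at 0.63 and -0.031, and with normexp and loess at 1.49 and 0.74. Amy2, pancreatic amylase, had 0.02 ± 0.17 on its brightest probe (symbol Amy2-2). The 2 dimmer probes of the amylase transcript 1810008N23Rik gave -0.57 ± 0.40 and -0.12 ± 0.83, and the last was well above background in red in only 1 array. Amy1, the salivary amylase, had 0.10 ± 0.19 on a probe that the annotation assigns to Amy2 transcripts as well, and 0.41 ± 0.20 (limma adjusted p = 0.0070, 8 of 8 mice above the pool) on a probe assigned to Amy1 alone. Rnase1, pancreatic ribonuclease, likewise differed between its probes, with 0.18 ± 0.14 on the brighter (limma adjusted p = 0.043) and -0.38 ± 0.22 on the dimmer (limma adjusted p = 0.013), where all 8 mice lay below the pool. For Amy1 and Rnase1 the choice of probe therefore moved the value by more than its spread between mice. Serpini2, a serpin made by acinar cells, had -0.14 ± 0.12 (SD, n = 8; limma adjusted p = 0.059), with 7 of 8 mice below the pool.

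Among the granule proteins, 4 of 5 means were below 0 with the deposited ratios, and the group median was -0.03. Of the 5, 2 passed the adjusted p (40%), both lower in NOD mice, against 4.4% of all probes in that direction. Neither passed under the other 2 normalizations, and with normexp and loess their means were above 0. Sycn, syncollin, a protein of the inner face of the granule membrane, read -0.56, -0.48, -0.33 and -0.43 on slide 1 and -0.18, -0.17, -0.16 and -0.35 on slide 2. All 8 mice were below the pool, and the mean was -0.33 ± 0.15 (SD, n = 8; limma adjusted p = 0.0062), 79.4% of the pool. Dmbt1, a scavenger-receptor glycoprotein of mucosal secretions, which pancreatic ducts are known to make as well, read -0.24, -0.41, -0.22 and -0.24 on slide 1 and -0.66, -0.39, -0.39 and -0.53 on slide 2. All 8 mice were below the pool here too, and Dmbt1 averaged -0.39 ± 0.16 over them (SD, n = 8), with a limma adjusted p of 0.0038. Of the duct markers, 6 of 7 had a mean below 0, with a median of -0.10 beside -0.09 over all tested probes, or -0.48 with median centring and -0.14 with normexp and loess. The only duct marker past the adjusted p was Cftr (-0.66, limma adjusted p = 0.00012, 8 of 8 mice below the pool), whose red signal was not well above background in any array. Cftr was at -0.48 with median centring and at -0.046 with normexp and loess. The part of the duct markers in the Dmbt1 value was not tested. Gp2, the main glycoprotein of the granule membrane, read 0.19, 0.44, 0.72 and 0.23 on slide 1 and 0.23, 0.45, 0.07 and -0.45 on slide 2. Of the 8 mice, 7 lay above the pool and mouse 8 lay well below it, and the mean of 0.24 ± 0.34 (SD, n = 8) did not pass (limma adjusted p = 0.20). Zg16, a lectin of the granule matrix, had -0.03 ± 0.12 and Cuzd1, a CUB-domain protein of the granule, -0.03 ± 0.40. With normexp and loess Gp2 (1.21, limma adjusted p = 0.0019) and Zg16 (1.57, 0.0060) passed 2-fold and an adjusted p of 0.01.

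The other secreted and cellular proteins gave 1 difference with the deposited ratios. Aqp8, a water channel of the apical acinar membrane, read -0.10, -0.75, -1.01 and -1.25 on slide 1 and -0.45, -0.98, -0.66 and -0.53 on slide 2. All mice were below the pool, mouse 1 only slightly, and the mean of -0.72 ± 0.37 (SD, n = 8; limma adjusted p = 0.0079), 60.8% of the pool, was the lowest of the 33 genes. It did not pass with median centring (-0.61, limma adjusted p = 0.047) or with normexp and loess (-0.48, 0.15). At the same mean it also missed the threshold by a little with limma's fit left unmoderated (adjusted p = 0.0136), with no signal filter (0.0107) and with slide as a covariate (0.0101). Cckar, the cholecystokinin receptor that triggers enzyme release, had 0.22 ± 0.22 (limma adjusted p = 0.085). Klk1, tissue kallikrein, had 0.10 ± 0.28, Tff2, a trefoil peptide, -0.11 ± 0.30, Pdia2, the pancreas-specific protein disulfide isomerase, 0.11 ± 0.26, and Gatm, the first enzyme of creatine synthesis, 0.03 ± 0.31 (SD, n = 8 each), and none passed with these ratios. With normexp and loess Klk1 (1.00, limma adjusted p = 0.0043) and Pdia2 (1.23, 0.0046) passed 2-fold and an adjusted p of 0.01.

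Of the 4 transcription regulators, Rbpsuhl was lower in NOD mice with the deposited ratios, and the other 3 did not pass. Rbpsuhl did not pass with median centring (-0.19, limma adjusted p = 0.38) or with normexp and loess (0.38, 0.13). Rbpsuhl read -0.23, -0.44, -0.53 and -0.59 on slide 1 and -0.48, -0.31, -0.40 and -0.28 on slide 2. All 8 mice were below the pool within a narrow range, and the mean was -0.41 ± 0.13 (SD, n = 8; limma adjusted p = 0.0017), 75.4% of the pool. Its partner Ptf1a read -0.03, 0.22, 0.31 and 0.30 on slide 1 and 0.35, -0.09, 0.14 and -0.38 on slide 2. The mice lay on both sides of the pool, 5 above and 3 below, and the mean was 0.10 ± 0.25 (SD, n = 8) with an interval from -0.10 to 0.30. Bhlhb8, which sets up the secretory architecture of the cell, read -0.003, -0.17, -0.16 and -0.13 on slide 1 and 0.31, 0.35, -0.0011 and 0.31 on slide 2. No mouse of slide 1 was above the pool and 3 of slide 2 were, at a mean of 0.06 ± 0.22 (SD, n = 8), while a second probe at 308 green units gave -0.44 ± 0.32 and was well above background in red in 4 arrays. Nr5a2 read -0.08, 0.08, -0.30 and -0.25 on slide 1 and 0.01, -0.34, -0.51 and 0.06 on slide 2. 5 mice lay below the pool and 3 above, and the mean of -0.17 ± 0.22 (SD, n = 8) did not pass (limma adjusted p = 0.16).

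Leaving out 1 mouse at a time showed which of the 5 calls held each time. Pnliprp1 and Rbpsuhl kept an adjusted p under 0.01 in all 8 of these fits, with limma adjusted p-values of 0.0030 to 0.0053 and 0.0031 to 0.0064. Dmbt1 did so in 5 of 8, with up to 0.012 without mouse 2, 6 or 7. Sycn kept it only without mouse 7 (0.0097 to 0.019 over the 8 fits), and Aqp8 only without mouse 1 (0.0067 to 0.023). All means kept their direction, with Dmbt1 at -0.41 to -0.35, Sycn at -0.36 to -0.30 and Aqp8 at -0.81 to -0.64. Within 1 slide of 4 mice no gene of the 33 passed. The share of all probes that passes with 4 arrays was not taken, so this count shows nothing about the 5 genes. Their means had the same sign on both slides.

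The slides were 2-fold apart with an adjusted p under 0.01 for 1 gene with the deposited ratios, and for none under the other 2 normalizations. Ela2 read -0.53, -0.42, -0.44 and -0.47 in the mice of slide 1 and 0.43, 0.82, 0.76 and 0.56 in those of slide 2, so that all of slide 1 lay below the pool and all of slide 2 above it. Slide 2 minus slide 1 was 1.11 ± 0.09 (SE), with a limma adjusted p of 0.0085 and an exact permutation p of 0.029, the smallest that 4 against 4 allows. This made 1 of 33 genes past 2-fold and an adjusted p of 0.01 (3.03%), against 0.114% of all probes. With median centring the Ela2 difference was -0.06 and with normexp and loess -0.04, so that the direction turned. The call was also lost with any 1 mouse left out (limma adjusted p 0.016 to 0.027, with differences from 1.05 to 1.18). The next 2 differences did not pass: Ctrl with 0.68 (limma adjusted p = 0.12) and Ctrb1 with 0.63 (0.15). Tff2, a member chosen after its values were seen, had -0.38 on slide 1 and 0.15 on slide 2 (difference 0.53, limma adjusted p = 0.027), and its difference turned to -0.62 with median centring and -0.60 with normexp and loess. At the other end stood Gp2 with -0.32, Dmbt1 with -0.21 and Ptf1a with -0.19, and their limma adjusted p-values were 0.49, 0.21 and 0.60.

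Over all 33 genes the slide difference had a median of 0.08, beside 0 over all probes, and 25 genes had the higher mean on slide 2. The direction of these differences depended on the normalization: it turned for 16 of the 33 genes with median centring, where 17 had the higher mean on slide 2, and for 15 with normexp and loess, where 22 did. The slides did not overlap for 5 genes (15.2%), Ela2, Tff2, Ctrl, Clps and Bhlhb8, all with slide 2 higher in the deposited ratios, against 12.9% of all probes in either direction. Of these 5, Clps had the higher mean on slide 2 under both other normalizations (differences of 0.51 and 0.72), Ctrl with normexp and loess (0.08) but not with median centring (-0.07), and Ela2, Tff2 and Bhlhb8 (-0.20 and -0.20) under neither. The median of the 33 log2 ratios ran from -0.08 to 0.07 in the mice of slide 1 and from -0.02 to 0.36 in those of slide 2, with mouse 6 the highest. With median centring mouse 6 was the lowest of the 8 (-0.10), and with normexp and loess mouse 8 was the highest (1.48) and mouse 6 stood at 0.60. The slides also differed in their quality values: the spread of repeated red spots was 16.1% to 24.8% on slide 1 and 38.2% to 63.5% on slide 2, and 3 arrays of slide 2 carry a failed grid flag. The part of this in the slide differences was not tested.

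**Figure D3:**
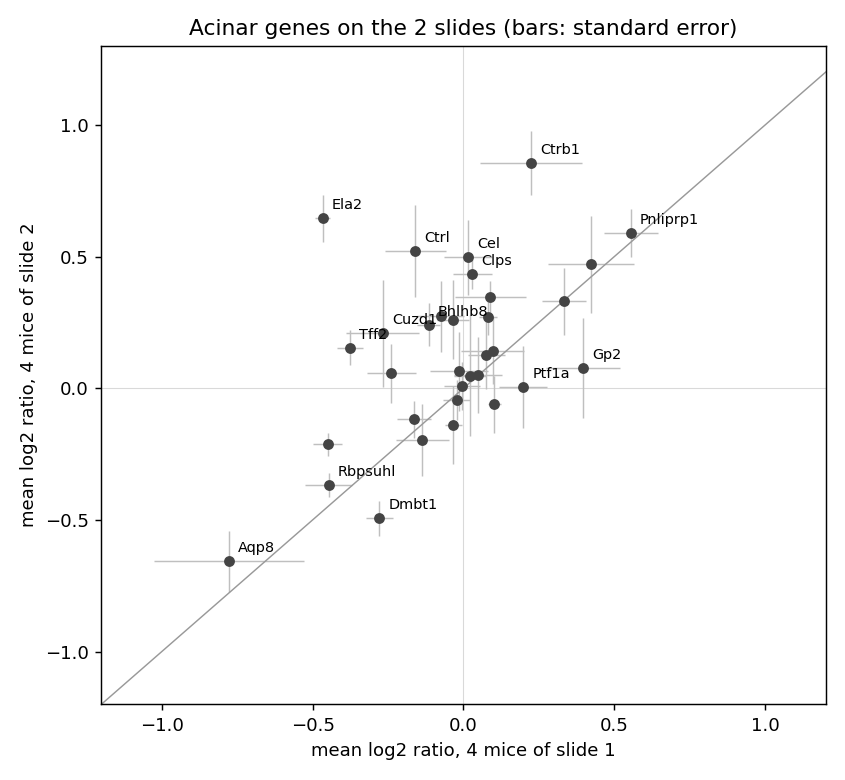
Mean log2 ratio of each acinar gene over the 4 mice of slide 1 (x axis) and of slide 2 (y axis), with standard errors, and the line of equal values, with the deposited ratios. Ela2 lies farthest from the line, at -0.47 and 0.64, and Pnliprp1, Rbpsuhl and Aqp8 lie near it.

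The level at which these genes stand depended on the normalization. The deposited ratios come from a curve that sets red against green as a function of brightness. With background-subtracted signals centred on their median and no curve, the median of the 33 genes was 0.16 (all probes 0.07), and with a normexp background and a loess curve it was 0.86 (all probes -0.01). The 70 probes among the 100 brightest that stand for none of these genes moved too: their medians were 0.01, 0.05 and 0.72 under the 3 scalings, and those of the 26 acinar probes among the 100 brightest 0.07, 0.31 and 1.17. Under normexp and loess, 14 of 33 genes (42.4%) passed 2-fold and an adjusted p of 0.01, all higher, among them Ctrb1 at 2.07, Pnlip at 2.01 and Pnliprp1 at 1.67, against 0.171% of all probes and, in either direction, 28.6% of the 70 other bright probes. With median centring alone, 1 gene passed, Pnlip at 1.19, against 20.6% of all probes in that direction. The sign turned for Rbpsuhl (0.38), Sycn (0.15) and Dmbt1 (0.56) under normexp and loess, where none of them passed.

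**Figure D4:**
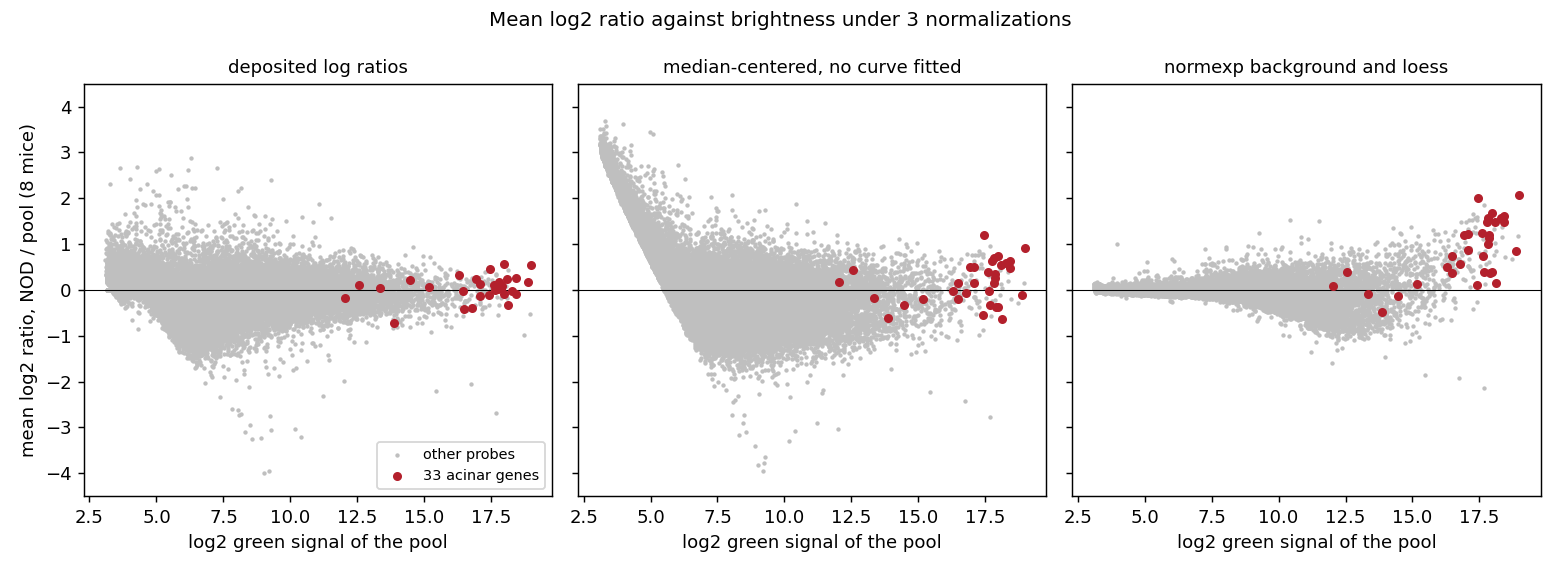
Mean log2 ratio of 8 mice against the log2 green signal of the pool for all tested probes (grey) and for 33 acinar genes (red), with the deposited ratios, with median centring and no curve, and with normexp background and loess. The acinar genes lie around 0 in the left panel and rise with the other bright probes in the right panel, where their median is 0.86.

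Each array was also set to the median of its 33 genes, an alternative added after the data were seen. Against the deposited ratios, 10 of 33 genes then changed sign with median centring and 11 with normexp and loess, beside 13 and 12 without this step. The genes that passed with the deposited ratios, and Pnlip, are given here and were chosen by their values. Pnliprp1 was then at 0.52 ± 0.15 (SD, n = 8) with the deposited ratios, 0.55 with median centring and 0.81 with normexp and loess, above the median acinar gene in 8 of 8 mice each time. Pnlip was at 0.39, 1.02 and 1.15 and also above in 8 of 8. Sycn was at -0.39, -0.81 and -0.71, below the median acinar gene in 8 of 8 mice each time. Rbpsuhl was at -0.46, -0.37 and -0.48, below it in 8, 7 and 8 of 8 mice, Aqp8 was at -0.77, -0.78 and -1.34, below it in 8, 7 and 8, and Dmbt1 was at -0.44, -0.24 and -0.29, below it in 8, 6 and 7. Among the genes that changed sign were Ctrc (-0.14, 0.45 and 0.76), Pnliprp2 (0.28, -0.20 and -0.36), Cckar (0.16, -0.50 and -0.99) and, with normexp and loess, Ptf1a (0.05, 0.26 and -0.47).

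Of 30 further genes of the acinar secretory machinery, none passed 2-fold and an adjusted p of 0.01, and 3 passed at any fold, Vamp8 and Itpr3 among them. Their median was -0.13, beside -0.09 over all tested probes, with 9 means above 0 and 21 below, and it was -0.35 with median centring and -0.02 with normexp and loess. The highest were Stx3, a syntaxin of granule fusion, with 0.87 ± 0.70 (limma adjusted p = 0.039) at only 91.9 green units, and Vamp8, the granule v-SNARE, with 0.74 ± 0.19 (SD, n = 8; limma adjusted p = 8.2e-04), above the pool in 8 of 8 mice. The lowest were Hes1, a target of Notch, with -0.81 ± 0.83 (limma adjusted p = 0.081), and Gata4 with -0.76 ± 0.66 (0.048), neither well above background in red in any array. Itpr3, an inositol trisphosphate receptor of acinar calcium release, had -0.43 ± 0.11 (SD, n = 8; limma adjusted p = 9.4e-04), below the pool in 8 of 8 mice, and was named after its values were seen.

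Markers of other cell types were read beside these values, and they too depended on the normalization. The 7 T cell markers had a median of 0.61, or 0.96 with median centring and 0.10 with normexp and loess (Cd3e 0.61 ± 0.31, limma adjusted p = 0.0076, 8 of 8 mice above the pool), with a summed red signal of 4384 to 16656 and green of 2836 to 8422. Only Cd3e, which is itself the median of the deposited ratios, was well above background in red in 8 of 8 arrays. Cd2 and Cd8a were so in no array. The 5 B cell markers had a median of 0, or 1.08 with median centring and 0.04 with normexp and loess, and 3 of them were not well above background in red in any array. The other 2, Cd79b at 1.18 ± 1.39 and Ms4a1 at 1.01 ± 1.51 (SD, n = 8), were above the pool in 6 of 8 mice each and did not pass (limma adjusted p = 0.12 and 0.21). The 6 beta cell markers tested had a median of -0.64 (-1.05 with median centring and -0.20 with normexp and loess) and the 6 adipocyte markers -0.79 (-0.73 and -0.09), none past the test. Red was well above background in 8 of 8 arrays for 2 of the 7 beta cell markers with a probe. The same held for 2 of the 6 adipocyte markers. Of 5 liver markers 3 were at least 2-fold lower and passed, Alb1 at -2.31, Fgb at -3.05 and Apoa1 at -1.30. Red was not well above background in any array for Fgb and Apoa1, and with normexp and loess the 3 means of Alb1, Fgb and Apoa1 were -1.36, -0.60 and -0.07. The 5 liver markers had summed green signals of 2654 to 4285 and red of 532 to 1510. The 6 acinar markers, all of them among the 33 genes, had a summed red signal of 1275425 to 2404952 and all were well above background in 8 of 8 arrays. The part of the other cell types in the acinar values was not tested.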

How the data were processed

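Total RNA of 8 NOD pancreata and of 1 NOD.B10 pool was compared on two-colour Whole Mouse Genome arrays. The authors extracted the scans with Feature Extraction 10.7.3.1, and the deposited files hold, for each of 43379 non-control spots, a log10 ratio of red over green after background correction and a lowess dye normalization, and processed and raw signals as intensity in scanner units. The positions of probes in the files are on mm8. The study used GeneSpring with a minimum signal of 25 in 4 or more of the 8 NOD samples, a fold of 2 and a corrected p of 0.01, and these cuts were kept without its restriction to genes with human homologues. The log10 ratios were turned into log2 and repeated spots of a probe averaged. A one-sample moderated test in limma 3.58.1 (R 4.3.3) was run on 28105 probes with a symbol, and the test of slide 2 against slide 1 on the same probes, each with Benjamini-Hochberg adjustment over all of them. The spread is between mice, and there is no replicate of the pool. On simulated ratios, 200 of 28105 probes were changed 3-fold against the pool and 200 others 3-fold between slides. Of these, 72.5% and 24.5% were called, with 0 false calls. The simulated noise was independent between probes and arrays, so that shared errors of a dye, the pool or a slide are not covered. Changes smaller than 3-fold were not simulated. Single genes were tested by exact sign flips (256 patterns) and exact permutation of slides (70 splits), both two-sided. No counts exist, so that precision is limited by the number of arrays. The brightest probe stood for a gene. Every gene was named with its mean, and values of each mouse were given for genes called in either test, for the 4 regulators and for the 3 highest and 3 lowest in ratio or slide difference. Sycn was added as a gene past the adjusted p. The genes and lists were chosen with earlier results of these data known. Alternatives were another statistic, 2 other signal filters, 2 other normalizations, other probes, other cuts, slide as a covariate, the median over mice and each mouse left out. Promoters come from the RefSeq annotation of GRCm38.p6. Serpina1a of the liver list had no probe and was not analysed here. The values of 1 further acinar gene past the adjusted p are not reported here.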

Additional observations from a re-analysis of the deposited data

Results flagged for a closer look

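For Pdia2, the pancreas-specific protein disulfide isomerase, mouse 6 had a log2 ratio of 0.69 while the next highest mouse had 0.20, a gap of 0.61 of the range of the 8 mice, above Dixon's 95% critical value for 8 samples. It was the only one of the 33 acinar genes with such a value, and chance alone gives about 1 in 20 for each set tested. Without mouse 6 the mean of Pdia2 was 0.03.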

How the results depend on the processing

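Under the plain statistic, both other signal filters, slide as a covariate, the other probes and an adjusted p of 0.05, the number of acinar genes past 2-fold and the adjusted p stayed at 0. Leaving saturated spots out changed nothing because there were none. Median centring without a curve gave 1 such gene (Pnlip), normexp with loess 14, and a fold of 1.5 gave 1 (Aqp8). Of the 30 further acinar genes, 3 were called with median centring (Stx3, Gata4 and Itpr2), 2 with normexp and loess (Try5 and Itpr2), and 1 with a fold of 1.5 (Vamp8), and leaving out mice gave 0 to 1 (Stx3 without mouse 7). The number of acinar genes past the adjusted p at any fold was 5 (15.2%, against 6.94% of all probes) and became 4 with the plain statistic, with no signal filter and with slide as a covariate (Aqp8 was lost each time), 6 with other probes, 3 with median centring (Pnlip, Ctrb1 and Pnliprp1), 16 with normexp and loess, 9 at an adjusted p of 0.05, 0 on either slide alone and 2 to 4 with mice left out. The share of all probes at any fold was taken for the deposited ratios only. The counts under the other settings therefore cannot be set against such a share. The slide call, 1 gene, became 0 with the plain statistic, with median centring, with normexp and loess, and with any mouse left out. The median log2 ratio was 0.86 with normexp and loess and 0.023 to 0.085 with mice left out, and the median slide difference was then 0.054 to 0.16. Why the normalizations differ was not tested.

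With median centring the sign turned for Ela2 -0.37, Ctrl -0.11, Ctrc 0.63, Cpb1 -0.031, Pnliprp2 -0.019, Amy2 -0.33, Serpini2 0.15, Zg16 0.60, Cuzd1 0.15, Bhlhb8 -0.20, Nr5a2 0.17, Cckar -0.33 and Gatm -0.18. With normexp and loess it turned for Ela1 0.39, Ctrc 1.62, Serpini2 0.87, Zg16 1.57, Sycn 0.15, Cuzd1 0.75, Dmbt1 0.56, Tff2 0.10, Rbpsuhl 0.38, Nr5a2 0.091, Cckar -0.14 and Gatm -0.093. The slide difference turned for 16 of the 33 genes with median centring and for 15 with normexp and loess. Among the genes named for their slide difference it turned with median centring for Ptf1a 0.57, Ctrl -0.073, Ela2 -0.058, Tff2 -0.62 and Bhlhb8 -0.20, and with normexp and loess for Gp2 0.0037, Dmbt1 0.031, Ptf1a 0.54, Ela2 -0.036, Tff2 -0.60 and Bhlhb8 -0.20. Other probes turned Amy2 (-0.57 and -0.12), Rnase1 (-0.38) and Bhlhb8 (-0.44). With mice left out, 7 means near 0 changed sign: Ela2 ran from -0.016 to 0.18, Prss2 from -0.012 to 0.077, Cpa1 from -0.020 to 0.078, Cpb1 from -0.021 to 0.036, Amy2 from -0.0024 to 0.065, Cuzd1 from -0.13 to 0.044 and Gatm from -0.053 to 0.10. No paired analysis was possible because each array holds 1 mouse against the same pool and there is a single group. The level of these genes in NOD mice against the pool can be read only for a stated normalization, and 8 arrays limit the precision. Normexp with loess changed the background correction and the curve together.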
